A study of Mus musculus with 10 samples.

Results

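Cell cycle and proliferation genes, a set of 42 genes of S phase and mitosis, were followed in RNA sequencing of mouse brain microglia. The members were listed by their role in the cycle, with no threshold on their values, although earlier results of these data were known. All 42 of them were found among the 24453 listed gene symbols, and 39 passed the minimum of 1 RPM, a scaling of reads by the library total, in at least 2 of 10 libraries, as did 10800 genes in all. Plk1, Cdc20 and Kif20a did not pass and were not tested. The study held 2 comparisons. Libraries labelled Rab7 deltaMG and Rab7 Control came from mice aged 3 months, with 2 libraries each, and the series text calls the mutants Rab7 null. Aged mice of 15 months and young mice of 10 weeks gave 3 libraries each and are called wild-type in the series title. All 4 groups carried the strain label C57bl6, were untreated, and gave cells purified from brain with magnetic beads. The labels do not say which driver removes Rab7, nor whether replicates are separate animals, so a p-value here speaks only of variation among the libraries, which may be technical.

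Ki-67, the protein of Mki67, coats mitotic chromosomes and is the common marker of cycling cells. Dividing cells first copy their DNA, which needs the MCM helicase, the clamp PCNA and a supply of nucleotides. They then build a spindle and separate the chromosomes with cyclins, kinases, motor proteins and the kinetochore. Adult microglia renew slowly by local division, whereas precursors of neutrophils and monocytes divide in the bone marrow. S100a8 encodes a calcium-binding protein abundant in neutrophils and some monocytes, and Ccr2 encodes the chemokine receptor of classical monocytes.

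In each library a single read was worth 0.101 to 0.164 RPM, and a member had between 0 and 2693 reads in a library. Values of Ncapg and Kif20a in every library where they were above 0, and of Ccna2 in 4 of its 6 libraries under 50 reads, were not whole multiples of a read, so these are estimates by the authors' processing. Rab7 itself stood at 64.2 and 67.5 RPM under the control label and at 72.2 and 79.4 RPM under the deltaMG label. It was thus not lower in the latter (adjusted p = 0.758, limma), and which exons are deleted is not given in the sources used here. The summed RPM of 12 microglia markers was 6282 to 7076 in young, 4124 to 4570 in aged, 5956 to 6354 in labelled control and 5322 to 6849 in labelled deltaMG libraries. Xist was at 1715 to 1771 RPM in young and at 0.127 to 0.940 RPM in aged libraries, and 4 Y-linked genes summed to at most 0.288 RPM in young and 35.7 to 48.7 RPM in aged libraries. Age and sex therefore cannot be told apart in every aged to young value below. All 4 Rab7 libraries held both Xist and Y-linked RNA.

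Many genes of mitosis carry CCAAT boxes, bound by the factor NF-Y, and a downstream element with the core TTTGAA that is bound by the DREAM and MMB complexes. Many genes of S phase carry E2F sites. The 250 bases before the start of the gene are shown for 3 members that were higher in aged libraries (Top2a, Mki67 and Ccnb2) and for Mcm6, an MCM gene that was not called, as an example of E2F type matches, of which it held the most among the 5 MCM genes with an entry. Sequences are from RefSeq on GRCm38.p6, written 5′ to 3′ on the gene's own strand. All 4 genes lie on the minus strand: Top2a at chr11:99024190-99024439, Mki67 at chr7:135716380-135716629, Ccnb2 at chr9:70421555-70421804 and Mcm6 at chr1:128359706-128359955. Capitals mark the CCAAT box, the core TTTGAA and any E2F type match, each searched on both strands. An E2F type match was 1 of 4 words of 7 letters: TTTCCCG as the first, TTTGGCG as the second, TTTCGCG as the third and TTTGCCG as the fourth. In Mcm6 a run of capitals joins overlapping E2F type matches on both strands.

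Top2a: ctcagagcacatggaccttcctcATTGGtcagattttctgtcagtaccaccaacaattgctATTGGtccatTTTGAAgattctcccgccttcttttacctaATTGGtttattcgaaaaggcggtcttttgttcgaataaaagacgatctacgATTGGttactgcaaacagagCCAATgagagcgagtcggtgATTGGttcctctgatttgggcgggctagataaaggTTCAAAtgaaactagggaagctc
Mki67: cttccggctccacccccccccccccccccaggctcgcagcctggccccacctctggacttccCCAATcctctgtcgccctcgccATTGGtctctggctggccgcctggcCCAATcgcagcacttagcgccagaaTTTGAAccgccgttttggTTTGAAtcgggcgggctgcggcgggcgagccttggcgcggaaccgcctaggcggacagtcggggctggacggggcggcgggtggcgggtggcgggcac
Ccnb2: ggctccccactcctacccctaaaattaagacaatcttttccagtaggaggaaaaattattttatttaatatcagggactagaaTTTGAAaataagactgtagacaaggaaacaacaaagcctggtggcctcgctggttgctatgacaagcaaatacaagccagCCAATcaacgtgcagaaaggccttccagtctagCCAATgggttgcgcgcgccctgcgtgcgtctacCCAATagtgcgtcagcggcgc
Mcm6: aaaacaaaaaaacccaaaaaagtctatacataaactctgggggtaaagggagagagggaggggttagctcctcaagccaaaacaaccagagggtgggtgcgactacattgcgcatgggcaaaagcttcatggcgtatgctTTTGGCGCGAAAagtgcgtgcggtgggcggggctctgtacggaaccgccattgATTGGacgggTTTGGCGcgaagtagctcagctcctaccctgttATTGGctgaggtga

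Top2a held 6 CCAAT and 2 TTTGAA matches in this window, Mki67 held 3 and 2, Ccnb2 held 3 and 1, and none of these held an E2F type match. Mcm6 held 2 CCAAT matches and 3 E2F type matches, with no TTTGAA. An entry was found for 35 of 42 members, and where a member had more than 1 entry, as 3 did, the first was used. CCAAT was present in 29 of these 35 windows (82.9%), against 33.9% of all 32841 windows of the same length. TTTGAA was present in 13 (37.1% against 16.0%), and an E2F type match in 7 of 35 windows, against 5.51%. Among the 10 S phase members with an entry, 8 held CCAAT, 1 held TTTGAA and 3 an E2F type match. Among 12 members that were higher in aged libraries and had an entry, 10 held CCAAT, 6 held TTTGAA and 2 an E2F type match. CCAAT was thus about as frequent in both sets. These matches describe letters only.

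Of 39 members tested, 14 were higher in aged libraries and none was lower (limma, adjusted p under 0.05 over all genes), against 2.34% of all genes tested called higher and 1.1% lower (3.44% in either direction). The members' median log2 fold change was 1.03, against -0.02 for all genes tested, and 38 of 39 members had a positive value. In the same fit 30 members had an unadjusted p under 0.05. The 14 called were Stmn1 and 13 of 26 mitosis members tested, while 0 of 11 S phase members was called in this fit. An unadjusted p under 0.05 was found for 24 of the mitosis and 4 of the S phase members. For 25 of 42 members all 3 aged libraries were above all 3 young ones, as was so for 8.6% of genes tested, and these 25 include all 14 called. No member had all 3 aged libraries below the young ones, against 10.9% of genes tested. Fold changes were taken from log2(RPM + 1), so those of genes with few reads come out too small. In bulk RNA, a larger number of cycling cells and more of this RNA in each cell cannot be told apart.

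Mki67 stood at 66.2, 71.2 and 20.2 RPM in young replicates 1 to 3 and at 123, 126 and 342 RPM in aged replicates 1 to 3. The fold change was 3.75 (log2 1.91, SE 0.36, adjusted p = 0.00424). The ranges did not overlap, and aged replicate 3 was the highest library and young replicate 3 the lowest. Top2a, the topoisomerase that untangles replicated chromosomes, stood at 5.04, 5.25 and 2.45 RPM in young and 14.7, 13 and 37.1 RPM in aged libraries. Its fold change was 4.01 (log2 2.00, SE 0.31, adjusted p = 0.000593), the smallest p among the members. Per kilobase of merged exon, Mki67 had the highest mean level of the set, at 5.22 RPM per kilobase in young and 19.6 in aged libraries, and Top2a stood at 0.471 and 2.40. By gene position on GRCm38, Mki67 lies at chr7:135689784-135716361 and Top2a at chr11:98992943-99024189, both on the minus strand. Annotated genes overlap both, as they do 23 of 42 members, and without a known strand setting reads of a gene and of an overlapping one cannot be told apart. The annotation also names a pseudogene of 6 members, among them the called genes Ccnb2, Kif4 and Stmn1, whose values are uncertain where reads were split between copies.

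**Figure D1:**
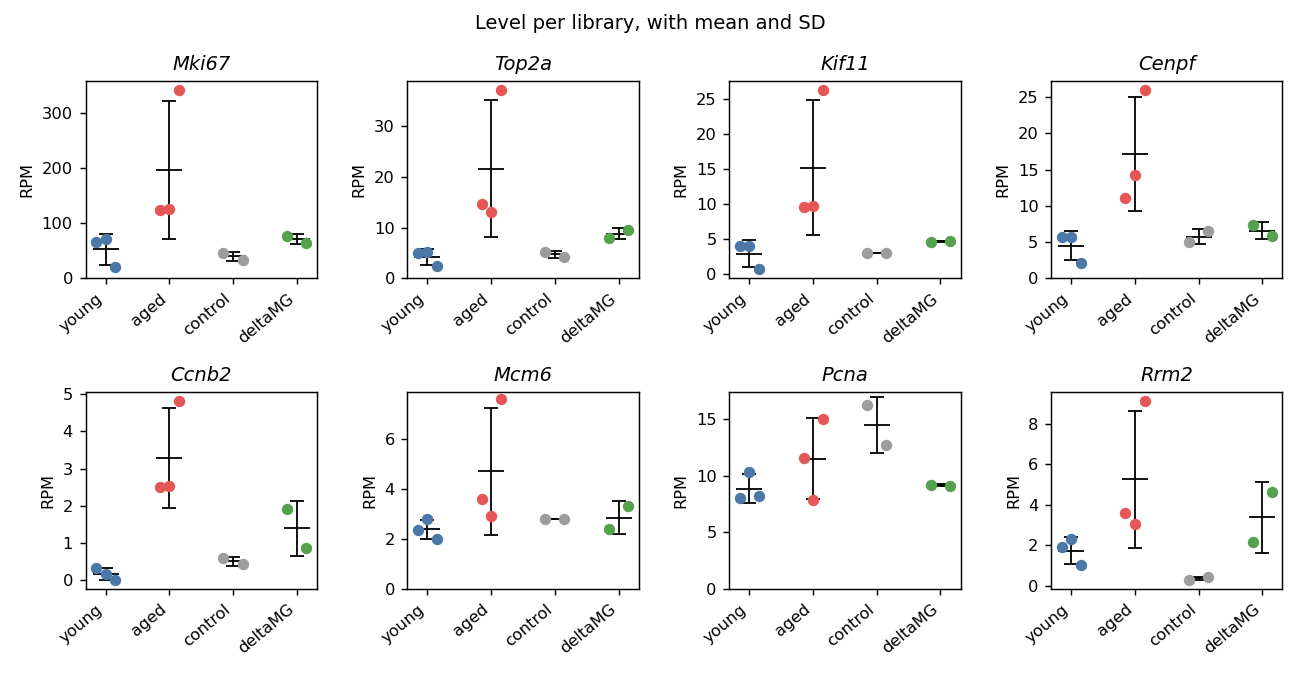
RPM of leading members in each of the 10 libraries, by group, 1 point per library, with the group mean and SD as bars. For Mki67 and Top2a the 3 aged points lie above the 3 young points, with aged replicate 3 apart at 342 and 37.1 RPM.

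Among the mitotic cyclins, Ccnb2, which activates CDK1 at entry to mitosis, had almost no reads in young libraries. It gave 2, 1 and 0 reads in young replicates 1 to 3 and 16, 25 and 38 reads in aged ones, or 0.315, 0.164 and 0 RPM against 2.51, 2.52 and 4.83 RPM. The fitted fold change was 3.61 (log2 1.85, SE 0.29, adjusted p = 0.000855). The ratio of pooled reads per depth was 21.1, with an exact 95% interval of 6.97 to 105 that covers counting error only. Other genes of this role were not called: Ccna2 (adjusted p = 0.0697), Ccnb1 (0.0637) and Cdk1 (0.820). Cdk1, the kinase itself, was at 0.630, 1.97 and 0.720 RPM in young and 0.783, 1.01 and 2.67 RPM in aged libraries, so its ranges overlapped.

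Genes of the kinetochore and checkpoint gave 3 calls among 5 tested. Cenpf, a kinetochore protein, stood at 5.67, 5.74 and 2.16 RPM in young and 11.1, 14.2 and 26.0 RPM in aged libraries, a fold of 3.28 (log2 1.71, SE 0.30, adjusted p = 0.00237). Cenpe, a kinetochore motor, stood at 3.47, 2.79 and 1.15 RPM against 7.52, 7.87 and 18.4 RPM, a fold of 3.43 (log2 1.78, SE 0.37, adjusted p = 0.00959). Both sets of 3 aged values lay above the young ones. Bub1, a checkpoint kinase, stood at 0.158, 1.48 and 0.288 RPM against 2.51, 1.61 and 5.33 RPM, a fold of 2.51 (adjusted p = 0.0342), and its lowest aged value was only just above its highest young one. Bub1b, of the checkpoint, and Ube2c, an enzyme that works with the anaphase-promoting complex, were not called (adjusted p = 0.296 and 0.0639).

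Spindle motors and cytokinesis genes gave 5 calls among 8 tested. Kif11, the motor that pushes spindle poles apart, had a fold of 4.10, the largest of the set on the log2(RPM + 1) scale but not as a ratio of mean RPM, where Ccnb2, Kif4 and Ncapg were above it (20.6, 8.64 and 6.46 against 5.11; log2 2.04, SE 0.37, adjusted p = 0.00352), with 4.10, 4.10 and 0.720 RPM in young and 9.56, 9.69 and 26.3 RPM in aged libraries. Kif4, a chromosome-arm motor, stood at 0.473, 0.164 and 0.720 RPM against 2.19, 2.93 and 6.60 RPM, a fold of 3.19 (adjusted p = 0.00945). Kif15, another spindle motor, stood at 1.58, 0.984 and 0.576 RPM against 4.23, 2.52 and 7.24 RPM, a fold of 2.66 (adjusted p = 0.0142). In all of these the aged and young values were separate. Nusap1, which bundles spindle microtubules, stood at 2.68, 1.64 and 1.15 RPM against 4.39, 4.95 and 13.8 RPM, a fold of 2.83 (adjusted p = 0.0171). Prc1, a midzone bundler, stood at 1.10, 0.820 and 0.720 RPM against 2.66, 2.02 and 5.84 RPM, a fold of 2.26 (adjusted p = 0.0433). The 3 uncalled genes, Kif23, Anln and Ect2, had adjusted p of 0.0773, 0.124 and 0.0733, and all of them had positive log2 fold changes.

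The remaining calls were Tpx2, an Aurora A activator, at 1.73, 2.30 and 0.576 RPM in young and 2.82, 5.15 and 8.63 RPM in aged libraries (fold 2.52, adjusted p = 0.0281), Smc2 and Stmn1. Smc2, a condensin subunit, stood at 2.99, 1.48 and 3.60 RPM against 5.80, 5.45 and 9.65 RPM (fold 2.17, adjusted p = 0.0358). Stmn1, a tubulin-destabilising protein, stood at 2.52, 1.97 and 0.432 RPM against 4.39, 4.84 and 6.48 RPM (fold 2.51, adjusted p = 0.0206). Values of these genes in the aged libraries lay above the young ones. Aurka, Aurkb and Birc5, 2 mitotic kinases and survivin of the chromosomal passenger complex, were not called (adjusted p = 0.654, 0.189 and 0.161), nor were Smc4, Ncapg and Hmgb2 (0.0588, 0.0793 and 0.117).

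None of the 11 S phase members was called, although 3 of them (Rrm1, Rrm2 and Tyms) were called higher with median-of-ratios scaling in place of RPM, where 21 members in all and 3.67% of genes tested were called higher. Their median log2 fold change was 0.59, against 1.17 for the 26 mitosis members tested. The 6 subunits of the MCM helicase, which opens DNA at origins, had log2 fold changes of 0.40 to 0.67 and adjusted p of 0.231 to 0.571. Mcm6 stood at 2.36, 2.79 and 2.02 RPM in young and 3.60, 2.93 and 7.62 RPM in aged libraries. Pcna, the sliding clamp and the S phase member with the most RPM in young libraries, stood at 8.04, 10.3 and 8.20 RPM against 11.6, 7.87 and 15.0 RPM, so the groups overlapped (log2 0.31, SE 0.22, adjusted p = 0.526). Rrm1 and Rrm2, the 2 subunits of ribonucleotide reductase, and Tyms, thymidylate synthase, had log2 fold changes of 0.94, 1.10 and 1.03 (adjusted p = 0.0909, 0.0778 and 0.0650). Tk1, thymidine kinase, was the one tested member with a negative value, at -0.26 (adjusted p = 0.747). Whether the S phase and mitosis members differ from each other was not tested.

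**Figure D2:**
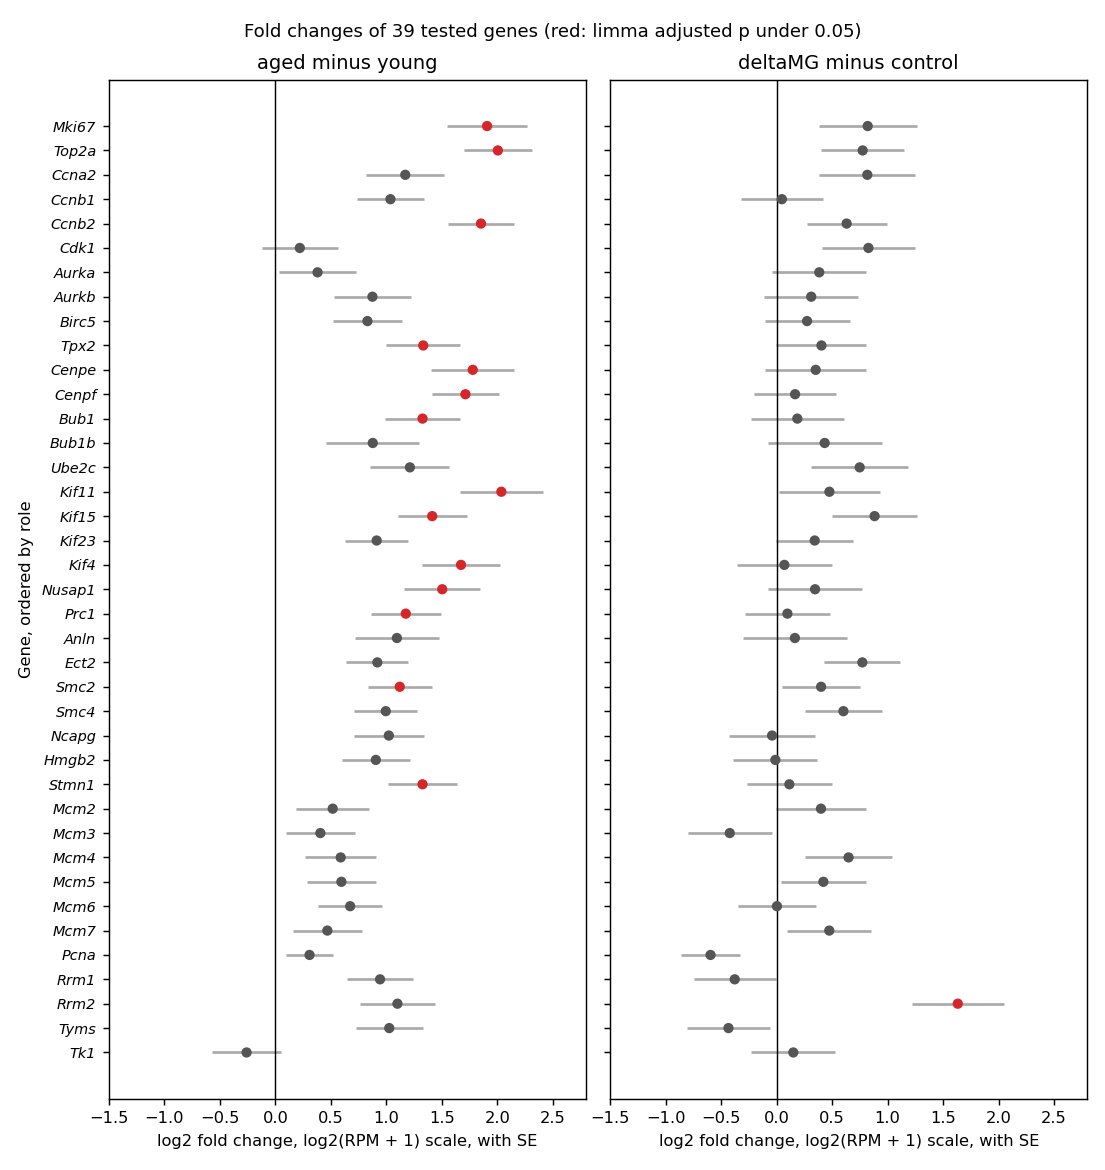
Log2 fold change on the log2(RPM + 1) scale with its SE, for each tested member, aged minus young and labelled deltaMG minus labelled control. Aged minus young values lie above 0 for all members but Tk1, and Kif11 and Top2a lead at 2.04 and 2.00.

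Aged replicate 3 was the highest of the 3 aged libraries for 42 of 42 members, against 51.2% of genes tested, and the highest of all 10 libraries for 39, against 19.3%. Relative to the mean of aged replicates 1 and 2 it was 2.46 times higher at the members' median (range 1.40 to 6.14), against 1.14 times over all genes tested. Young replicate 3 was the lowest young library for 30 of 42 members, against 40.8% of genes tested. Without aged replicate 3, 7 of the 14 members kept their call, and 1.16% of genes were called higher. Without young replicate 3, 7 kept their call (1.12% of genes), and with both libraries left out 6 did (0.9%). Mki67, Top2a, Ccnb2, Cenpf, Kif11 and Kif4 kept their call in each of the 10 fits that left out 1 library, with a highest adjusted p of 0.0198, 0.00533, 0.00727, 0.0171, 0.0197 and 0.0487. Without aged replicate 2, 22 members were called, against 5.11% of genes. With a minimum of 10 RPM only 6 members were tested, and 3 of them (Mki67, Top2a and Cenpf) were called, against 3.16% of genes.

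**Figure D3:**
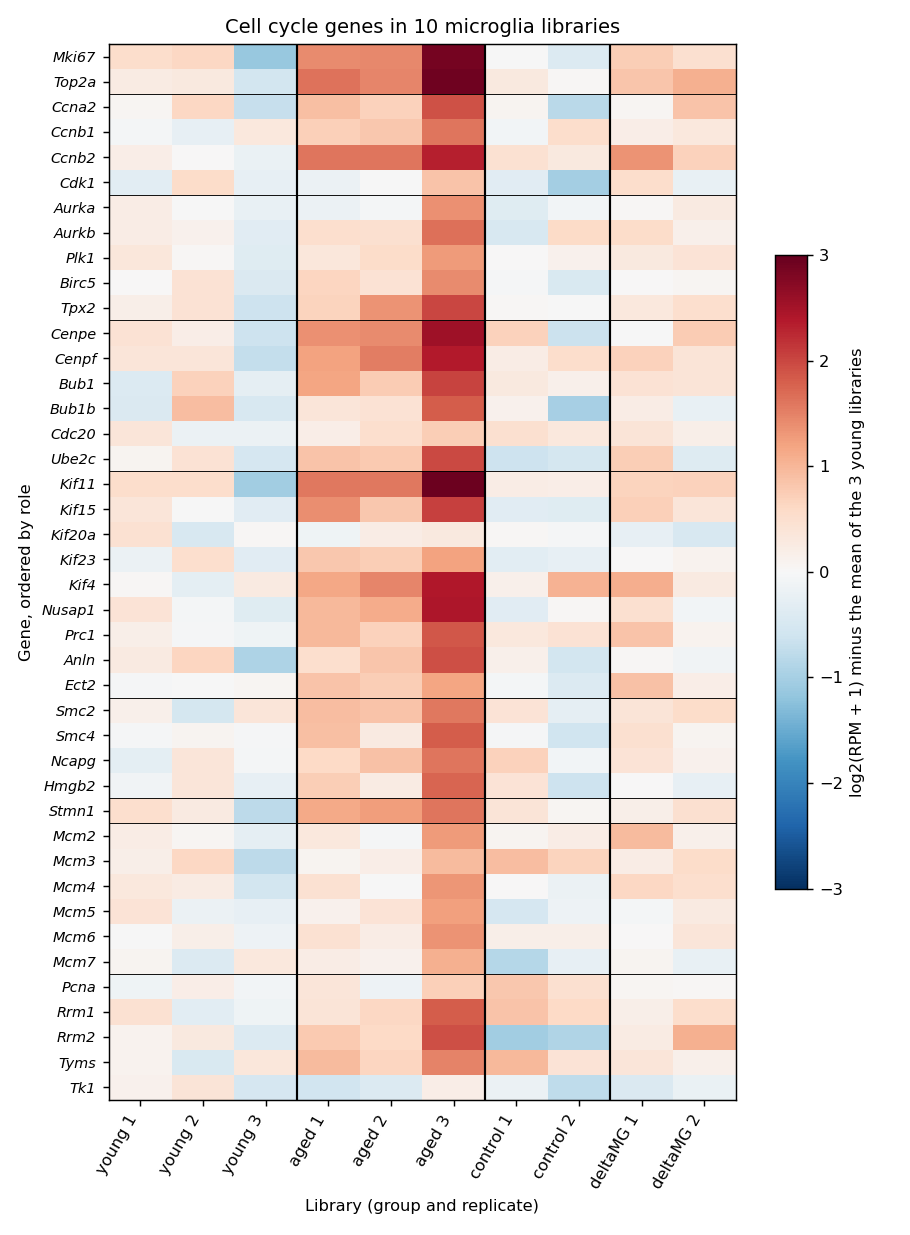
Member levels in each library as log2(RPM + 1), minus the member's mean over the 3 young libraries, with members ordered by role. Aged replicate 3 is highest for 39 of 42 members, and young replicate 3 is lowest of the young libraries for 30.

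S100a8 and Ccr2 were compared with the members library by library. S100a8 stood at 143, 224 and 75.7 RPM in young and 311, 156 and 773 RPM in aged libraries, with ranges that overlapped (log2 1.31, SE 0.40, adjusted p = 0.0733). Ccr2 stood at 13.6, 16.9 and 11.2 RPM in young and 44.2, 27.6 and 73.9 RPM in aged libraries, with ranges that did not overlap (log2 1.64, SE 0.24, adjusted p = 0.000478). Summed over the 42 members, the level was 164, 178 and 81.7 RPM in young and 298, 288 and 736 RPM in aged libraries. The summed members per unit of Ccr2 were 12.1, 10.5 and 7.27 in young and 6.74, 10.5 and 9.96 in aged libraries, so these ratios overlapped. Per unit of S100a8 they were 1.15, 0.792 and 1.08 in young and 0.957, 1.85 and 0.952 in aged libraries, and aged replicate 2 stood apart. Mki67 alone made up 123, 126 and 342 RPM of the aged sums. Without it the ratios to Ccr2 were 7.22, 6.32 and 5.48 in young and 3.94, 5.90 and 5.33 in aged libraries. These still overlapped, with aged replicates 1 and 3 below every young library. Aged replicate 2 had S100a8 within the young range and Mki67 at 126 RPM. Mpo (14 RPM) and Elane (4.14 RPM) were within the young ranges of 7.77 to 34.8 and 0.576 to 10.3 RPM. All 12 neutrophil precursor markers, Mpo and Elane among them, summed to 245 RPM, within the young range of 146 to 492 RPM. Its Ccr2 (27.6 RPM) and its sum of 8 monocyte markers (141 RPM) were above every young library, where that sum reached 85.8 RPM. Whether such cells gave the members' RNA in this library was not tested. In this library 29 of 42 members were above every young library, against 18.9% of genes tested. The same held for 30 members in aged replicate 1, against 25.1%, and for 40 in aged replicate 3, against 37.2%. Mpo and Elane encode granule proteins made by neutrophil precursors.

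**Figure D4:**
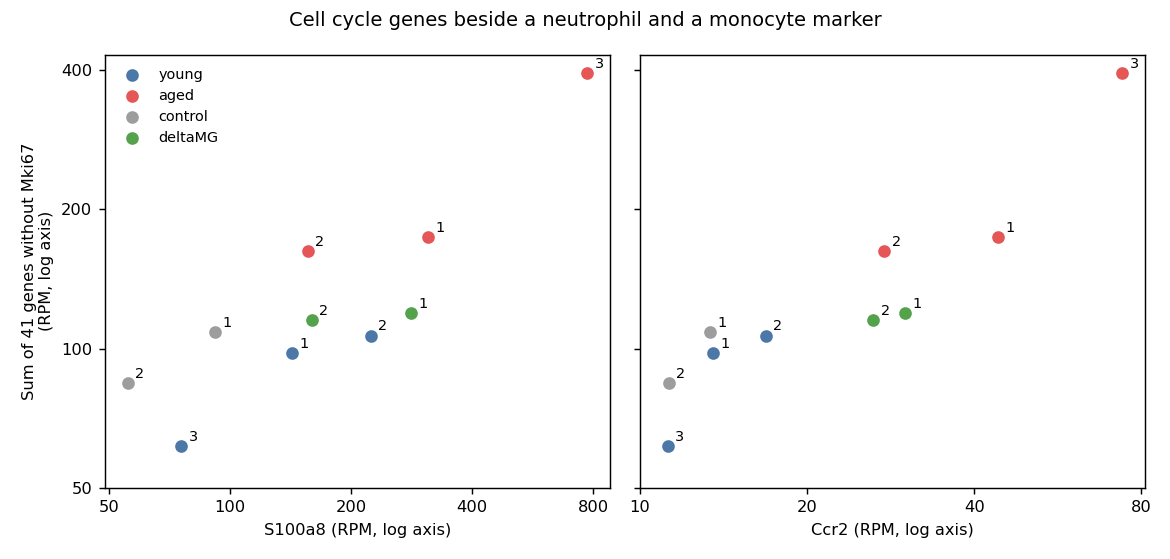
Summed RPM of the 41 members other than Mki67 against S100a8 and against Ccr2 in the 10 libraries, 1 point per library with its replicate number, on log axes. Aged replicate 3 is highest on all axes (394 RPM summed, S100a8 773 and Ccr2 73.9), and aged replicate 2 lies at 163 RPM summed with S100a8 at 156.

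Of 8 monocyte markers, 5 were higher in aged libraries (Vcan, Ccr2, F13a1, Fn1 and Itga4), against 2.34% of all genes tested. The sum of the 8 ran from 51.7 to 85.8 RPM in young and 141 to 431 RPM in aged libraries. Of 11 neutrophil markers, 1 (Cxcr2) was higher, with sums of 468 to 1152 and 835 to 3317 RPM. All 11 had positive log2 fold changes, and 8 had an unadjusted p under 0.05. Of 11 neutrophil precursor markers tested, 1 (Prtn3) was higher, with sums of 146 to 492 and 245 to 1835 RPM. These 11 were all positive too, and 6 had an unadjusted p under 0.05. Of all 10800 genes tested, 1801 had an unadjusted p under 0.05 in this fit. Haematopoietic progenitor markers summed to 36.9 to 50.7 RPM in young and 42.1 to 47.3 RPM in aged libraries. None of the 4 tested was called, and 1 had an unadjusted p under 0.05. Microglia markers were lower for 9 of 12, against 1.1% of all genes tested. Sums of border macrophage markers ran from 26.6 to 29.5 RPM in young and 31.7 to 83.9 RPM in aged libraries, with 1 of 7 (F13a1) called. Erythroid, B cell and T or NK cell markers summed to at most 12.6, 3.17 and 6.35 RPM in any young or aged library. Only 4 of 7, 1 of 11 and 1 of 7 of them were tested and limma called none of those, while the 4 erythroid markers had an unadjusted p under 0.05. Neural progenitor and neuroblast markers summed to 26.6 to 62.0 RPM in young and 48.1 to 198 RPM in aged libraries, most of it Cd24a, with none of the 3 tested called and 1 at an unadjusted p under 0.05. Endothelium and pericyte markers summed to 4.92 to 7.48 and 7.37 to 9.65 RPM, with none of the 4 tested called and 1 at an unadjusted p under 0.05. The neuron marker Snap25 and the astrocyte marker Slc1a2 were called higher in aged libraries (adjusted p = 0.0260 and 0.0256), in lists that summed to 0.984 to 1.30 against 2.29 to 6.16 RPM and 36.8 to 47.6 against 28.1 to 39.8 RPM. Of all the markers listed, Vpreb3, Cd3g, Car1, Dlx2 and Cldn5 were at 0 in every library. The part of these cells in the members' values was not tested.

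In a fit with log2 S100a8 as a covariate, 4 members were called higher in aged libraries, against 0.676% of genes tested: Top2a (log2 1.30, adjusted p = 0.00672), Mki67 (0.90, 0.0246), Ccnb2 (1.44, 0.0286) and Cenpf (1.14, 0.0407). All 14 members called without it still had positive values, as did 31 of 39 tested. With log2 Ccr2 as a covariate none was called, while 2 had an unadjusted p under 0.05 and 0.102% of genes tested were called higher. In that fit 11 of the 14 had positive values, as did 15 of 39, with a median log2 fold change of -0.16, against -0.22 for all genes tested. Since Ccr2 does not overlap between aged and young libraries, age and Ccr2 cannot be told apart in it.

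Between the libraries labelled deltaMG and labelled control, 0 of 26 mitosis members passed the limma test (2 had an unadjusted p under 0.05), and 1 of 39 members was called, against 0.657% of genes tested called higher. Rrm2 was higher, at 0.297 and 0.423 RPM (2 and 3 reads) in labelled control and 2.15 and 4.63 RPM (18 and 32 reads) in labelled deltaMG libraries. Its fold change was 3.10 (log2 1.63, SE 0.42, adjusted p = 0.0497), the ratio of pooled reads per depth was 9.04 (exact 95% interval 3.63 to 29.1), and its highest adjusted p with 1 library left out was 0.373. Of the fits that left out 1 library, only those without young replicate 3, aged replicate 2 or aged replicate 3 kept its call. Rrm2 was not called with S100a8 or Ccr2 as a covariate, nor with the replicate block. The median log2 fold change of the members was 0.35, and 33 of 39 were positive, while 4 had an unadjusted p under 0.05. With log2 S100a8 as a covariate the median was -0.34, with 8 of 39 positive, against -0.10 for all genes tested. With log2 Ccr2 it was -0.58, with 5 of 39 positive, against -0.16 for all genes. Neither marker overlaps between labelled control and labelled deltaMG libraries, so label and marker cannot be told apart in these fits. For 19 of 42 members both labelled deltaMG libraries lay above both labelled control ones, against 22.8% of genes tested, and for 5 both lay below (Mcm3, Pcna, Rrm1, Tyms and Kif20a), against 22.6%.

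Mki67 stood at 45.8 and 34.1 RPM in labelled control and 77.2 and 64.5 RPM in labelled deltaMG libraries, a fold of 1.77 (log2 0.82, SE 0.44, adjusted p = 0.461). Fitted on its own 4 libraries, Mki67 passed with an adjusted p of 0.00398, in a fit that called 4.81% of genes tested. Mki67 was not called with the replicate block (limma, adjusted p = 0.636). With S100a8 or Ccr2 as a covariate its log2 fold change was negative, at -0.37 and -0.70 (limma, adjusted p = 0.643 and 0.444). Top2a stood at 5.2 and 4.23 RPM against 8 and 9.55 RPM (adjusted p = 0.399). For both members the labelled deltaMG values lay above the labelled control ones. Pcna stood at 16.2 and 12.7 RPM in labelled control and 9.20 and 9.11 RPM in labelled deltaMG libraries (log2 -0.60, SE 0.26, adjusted p = 0.337), and was called lower with S100a8 or Ccr2 as a covariate. Kif20a was below 1 RPM throughout, at 0.437 and 0.374 RPM in labelled control and 0.185 and 0 RPM in labelled deltaMG libraries.

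S100a8 stood at 91.8 and 55.8 RPM in labelled control and 282 and 160 RPM in labelled deltaMG libraries (adjusted p = 0.126), and Ccr2 at 13.4 and 11.3 against 30.0 and 26.3 RPM (adjusted p = 0.0602). The summed members were at 154 and 118 RPM in labelled control and 196 and 180 RPM in labelled deltaMG libraries. Per unit of Ccr2 this was 11.5 and 10.5 against 6.55 and 6.83, so the ratio was lower in labelled deltaMG libraries. Without Mki67 it was lower too, at 8.11 and 7.46 against 3.97 and 4.38. Of 11 neutrophil markers 2 were called higher (Cxcr2 and Mmp9), against 0.657% of genes tested. The 11 summed to 396 to 585 RPM in labelled control and 953 to 1470 RPM in labelled deltaMG libraries. Limma called none of 8 monocyte markers (5 had an unadjusted p under 0.05), with sums of 48.5 to 60.3 and 97.9 to 135 RPM. None of 11 neutrophil precursor markers tested was called (5 had an unadjusted p under 0.05), with sums of 115 to 197 and 396 to 562 RPM. Of 4 haematopoietic progenitor markers tested, 1 (Cd34) was called lower (limma, adjusted p = 0.00841), against 1.03% of genes tested. That list summed to 75.3 to 94.3 and 47.6 to 56.5 RPM. Aged replicate 2 and labelled deltaMG replicate 2 had close S100a8 (156 and 160 RPM) and Ccr2 (27.6 and 26.3 RPM), with Mki67 at 126 and 64.5 RPM. Of the 42 members 33 were higher in the first of these libraries, against 29.1% of genes tested. In the same order, monocyte markers summed to 141 and 97.9 RPM and neutrophil precursor markers to 245 and 396 RPM. Neutrophil markers summed to 835 and 953 RPM, and Y-linked genes to 36.6 and 9.11 RPM. The pair was thus close in S100a8 and Ccr2 but not in its monocyte and neutrophil precursor sums. These 2 libraries also differ in age and come from different comparisons. This pair was picked after its values were seen and has no test.

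The difference between the labelled deltaMG effect and the age effect was called for 0 of 39 members by limma, against 1.9% of genes tested, while 14 had an unadjusted p under 0.05. The smallest adjusted p was 0.109, for Cenpf (log2 difference -1.55, SE 0.47), and the members' median difference was -0.83. With S100a8 as a covariate, 6 members (Cenpe, Cenpf, Kif11, Mki67, Rrm1 and Top2a) were called lower, against 2.61% of genes tested. With Ccr2 as a covariate limma called 0 members, with 6 at an unadjusted p under 0.05, a median difference of -0.36 and 1.42% of genes called lower.

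Other genes of the cycle were taken from 7 lists. Of 125 such genes tested, 21 were called higher and none lower in aged libraries, against 2.34% and 1.1% of all genes tested. Their median log2 fold change was 0.42. The same shares stand beside each aged to young count of these lists below. Spindle and kinetochore genes outside the set gave 11 calls among 32. Aspm, a spindle pole protein, stood at 2.21, 4.76 and 1.58 RPM in young and 10.5, 15.7 and 21.2 RPM in aged libraries, a fold of 4.48 (adjusted p = 0.000170). Hmmr, Sgol2a and Casc5, a spindle protein, a cohesin protector and a kinetochore protein, had folds of 3.58, 2.91 and 3.14 (adjusted p = 0.000696, 0.00515 and 0.00579). The 3 aged values lay above the young ones in each of these. Licensing genes gave 0 calls among 15 by limma, with 5 at an unadjusted p under 0.05, and fork and repair genes gave 1 among 23 (Brca1, fold 2.37, adjusted p = 0.0256).

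Among 18 G1 genes 3 were higher: E2f2, Ccnd3 and Foxm1, with folds of 2.42, 2.08 and 2.45 (adjusted p = 0.0378, 0.0433 and 0.0470). Foxm1 encodes a factor that activates mitosis genes, and Ccnd3 a D-type cyclin. Of 10 CDK inhibitor genes 2 were higher, Cdkn1a and Cdkn2d. Cdkn1a, which encodes p21, stood at 6.62, 6.07 and 6.05 RPM in young and 16.0, 18.5 and 18.0 RPM in aged libraries, a fold of 2.55 (log2 1.35, SE 0.18, adjusted p = 0.000181, at most 0.00134 with 1 library left out). It differs from the mitosis members in that aged replicate 3 was not the highest of the aged libraries. Cdkn2d stood at 2.21, 3.61 and 3.02 RPM against 6.42, 6.46 and 21.2 RPM (adjusted p = 0.0342). Condensin, cohesin and chromatin genes outside the set gave 3 calls among 20 (Tmpo, Chaf1a and Cbx5, with folds of 1.70, 2.39 and 1.59), and the Myc network 1 among 7.

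In the labelled deltaMG comparison 2 of these 125 genes were called, a share near the 1.69% of all genes tested. Gadd45g, a stress-induced growth-arrest gene, stood at 2.67 and 1.69 RPM in labelled control and 6.57 and 7.81 RPM in labelled deltaMG libraries (fold 2.60, adjusted p = 0.0122), and its log2 fold change in aged minus young was 0.02 (adjusted p = 0.978). Mxd1, a Max partner that opposes Myc, was the Myc network gene called in both comparisons, with folds of 3.07 (adjusted p = 0.0234) here and 2.51 (adjusted p = 0.0156) in aged libraries. Labelled deltaMG values for Mxd1 were 121 and 80.4 RPM against 35.2 and 27.9 RPM in labelled control libraries.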

How the data were processed

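RNA of microglia from 10 libraries was amplified with the NuGEN Ovation RNA-Seq System and made into Ion Xpress libraries, per the labels' protocols. GRCm38, mm10 and FastQC are named in the submitters' processing notes. No aligner, counter, annotation, normalisation or strand setting was given in the sources used here. The authors deposited normalised values that were read as RPM, because in each library 94.2% to 94.8% of values under 50 reads were within 0.05 of a whole multiple of 1 step above a constant of 0.0001, which was subtracted. The step gives 6098267 to 9907464 reads behind the scaling, and the listed genes sum to 18.7% to 23.5% of it. For 714 of 24453 genes at least 50% of low values were off these steps, so no count model was used.

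The 10800 genes that reached 1 RPM in 2 or more libraries were fitted as log2(RPM + 1) in R 4.3.3 (limma 3.58.1, trended prior variance), over 4 groups that leave 6 residual degrees of freedom. Benjamini-Hochberg adjusted p under 0.05 over these genes defined a call. A minimum of 10 RPM was an alternative because it leaves 6 members. The other alternatives were a pseudocount of 0.1, no minimum, median-of-ratios scaling, each comparison's own libraries, a replicate block, S100a8 or Ccr2 as a covariate, and leaving out each library. All members may be named, and up to 4 genes of each other list. The members and lists were chosen with earlier results of these data known. Positions are from GENCODE M21. The fit was tested on simulated data.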

Additional observations from a re-analysis of the deposited data

How the results depend on the processing

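The members' aged minus young calls kept a positive direction in every fit but that with Ccr2 as a covariate, where Mki67 was at -0.30, Bub1 at -0.34 and Prc1 at -0.10 (log2). Of genes outside the set, Casc5 (-0.13), Ccnd3 (-0.33), Cdkn2d (-0.40), E2f2 (-0.82) and Mxd1 (-0.62) also changed sign there, as did S100a8 (-1.77), which was not called before. Members called in aged libraries are given with the percent of all genes tested called in either direction. They numbered 13 with a pseudocount of 0.1 (2.87%), 21 with median-of-ratios scaling (4.99%) and 3 with a minimum of 10 RPM (6.14%). There were 0 with no minimum (0.213%), 9 with the comparison's own libraries (1.85%), 4 with S100a8 (1.08%) and 0 with Ccr2 (0.463%). Without aged 3 and young 3 together, an alternative chosen after seeing the data, there were 6 (1.76%). Leaving out 1 library gave 7 to 22 members (1.54% to 6.59% of genes over these fits). With no minimum 25 members had an unadjusted p under 0.05. Rab7 comparison members numbered 0, 0, 2 and 2 (minimum 10, no minimum, own libraries, without both) and 0 to 1 leaving out 1 library. With S100a8 and with Ccr2 as a covariate the number was 1, which was Pcna, called lower, and Rrm2 was not called. Genes called numbered, in aged libraries, 52 with no minimum, 200 with own libraries, 117 with S100a8, 50 with Ccr2, 186 without both and 165 to 707 leaving out 1. In the Rab7 comparison they numbered 66 with no minimum, 520 with own libraries, 506 without both and 32 to 397 leaving out 1. For the difference of effects they numbered 86, 476 (S100a8), 335 (Ccr2), 392 (without both) and 87 to 276. The log2 ratio of summed members, labelled deltaMG over labelled control, was 0.47, 0.31 with the mean log2 value and 0.29 to 0.67 leaving out 1 library. For aged over young it was 1.64, 1.01 with the mean log2 value and 1.05 to 1.87 leaving out 1 library. The cause of these moves was not tested. Replicate numbers did not pair the libraries: same-numbered deviations correlated at -0.07, -0.13 and -0.25 in aged and young and 0.02 in Rab7 libraries. With the replicate block, 146, 94 and 126 genes and 6 and 0 members were called. A single read is worth over 0.1 RPM, so members under 1 RPM rest on few reads.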
